A study of Mus musculus with 2 samples.

Results

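The nuclear genes for the subunits of respiratory complexes II to V were followed on a pair of mouse microarrays, 1 from control hepatocytes and 1 from Drp1LiKO hepatocytes. The members were every transcript probe whose gene name was Sdha, Sdhb, Sdhc, Sdhd or Cyc1, or began with Uqcr, with Cox4 to Cox8, or with Atp5. This gave 75 probes for 48 of the 37074 gene names on the array, and 45 of the 48 genes were detected, that is, had a probe well above background on at least 1 array. The names took in 4 genes that are not counted as subunits of the enzymes, namely Atp5s, Atp5sl, the listed pseudogene Atp5c1-ps and the supercomplex factor Cox7a2l. Cox5b was not among the names matched and is not analysed here.

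The hepatocytes came from mice of a C57BL/6 background in which Dnm1l, the gene for the mitochondrial fission protein DRP1, was floxed. Drp1LiKO mice carried an albumin-Cre transgene beside both floxed alleles, so deletion is driven in hepatocytes. The control animals were littermates with floxed alleles and no Cre (the labels call them wild type control). Cells were isolated by collagenase perfusion and low-speed pelleting, plated on collagen, and harvested untreated 24 h after seeding, and an age and sex are given in the sources used here for purchased C57BL/6J mice, not for these donors in particular. Each genotype was measured on 1 array, so nothing could be tested, and every ratio below describes these 2 libraries. At its brightest probe Dnm1l itself had a signal of 2602 on the control array and 1072 on the Drp1LiKO array, a log2 ratio of −1.28. The median over its detected probes was −0.79, and its Z score of −1.94 fell short of the threshold of 2 used below.

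Succinate dehydrogenase (complex II) feeds electrons from the citric acid cycle into ubiquinone, complex III passes them to cytochrome c, and cytochrome c oxidase (complex IV) hands them to oxygen. The proton gradient that complexes III and IV help to build drives the rotor of the ATP synthase (complex V). All of complex II is made from nuclear genes, whereas the catalytic cores of complexes III and IV and parts of the membrane sector of complex V also need subunits from mitochondrial DNA, and several subunits of complex IV come in isoforms that mark liver, muscle, lung or testis.

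The sequences on which the most divergent values rest were read from the array file, with positions on the mouse build mm9 that the file headers name. The first set below holds the probe of Cox7a1, the member with the highest ratio, and pairs of probes from Cyc1 and Atp5o, whose probes gave unequal ratios although both were bright. Each 60-base probe is printed whole where at least 1 of its 3 frames had no stop codon, and a 30-base stretch is printed otherwise or where the probe held the polyadenylation signal, which is in capitals. The Cox7a1 probe lay at chr7:30970337-30970948 on the plus strand and spanned 612 bases of the genome, so it crosses an exon junction. The second Cyc1 probe lay at chr15:76175938-76175997 on the plus strand, and the first had no position in the file. The Atp5o probes lay at chr16:91925472-91925531 and, 70 bases upstream in the transcript, at chr16:91925542-91925601, both on the minus strand. The brightest Atp5k probe, the member with the lowest ratio, was assigned to the minus strand of the unplaced sequence chr5_random:87129-87188, and the second probe of Atp5g1 to chr11:95934924-95934983 on the minus strand.
Cox7a1: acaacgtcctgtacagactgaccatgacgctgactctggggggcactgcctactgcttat
Cyc1, first probe: cctcagtgtgggAATAAAttaagtttctca
Cyc1, second probe: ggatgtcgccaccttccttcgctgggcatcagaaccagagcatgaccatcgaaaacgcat
Atp5o, first probe: tcttgtccttggagcaacAATAAAatgctt
Atp5o, second probe: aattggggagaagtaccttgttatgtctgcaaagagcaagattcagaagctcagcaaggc
Atp5k, first probe: tcgttgagaacgAATAAAgcttcattgtgt
Atp5g1, second probe: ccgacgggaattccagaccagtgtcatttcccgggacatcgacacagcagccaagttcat

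The promoters of the same extremes, Atp5k and Cox7a1, are shown to compare their upstream letters. They are the 250 bases before the annotated start, taken from RefSeq on GRCm38.p6 and written on the gene's own strand, and capitals mark a match to any of 4 motifs searched on both strands. The Atp5k window lay at chr5:108434400-108434649 on the minus strand and the Cox7a1 window at chr7:30183921-30184170 on the plus strand.
Atp5k: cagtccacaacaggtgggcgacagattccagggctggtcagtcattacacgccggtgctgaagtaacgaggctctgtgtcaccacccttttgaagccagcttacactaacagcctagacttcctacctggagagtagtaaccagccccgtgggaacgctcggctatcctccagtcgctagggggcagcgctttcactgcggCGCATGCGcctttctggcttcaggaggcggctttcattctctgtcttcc
Cox7a1: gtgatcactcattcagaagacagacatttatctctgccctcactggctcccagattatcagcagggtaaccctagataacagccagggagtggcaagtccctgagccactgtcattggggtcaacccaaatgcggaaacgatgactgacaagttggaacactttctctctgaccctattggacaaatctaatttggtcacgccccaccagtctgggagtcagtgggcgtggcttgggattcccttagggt

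In the Atp5k window the capitals are a match to CGCANGCG, the type of site bound by nuclear respiratory factor 1, and the Cox7a1 window had no match. A second motif was CCGGAAG, of the ETS type bound by GABP, and another was AAGATGGCG, of the YY1 type. The last was the core promoter element TATAAA, and no match overlapped a match of another motif. Promoters were found for 34 of the 45 detected genes, 3 of them through an older symbol, and the first entry of each gene was used. CGCANGCG was in 8 of the 34 (23.5%) against 6.76% of all 32851 promoter entries of that length. Its holders were 2 of the 3 promoters of complex II, 0 of 5 of III, 1 of 10 of IV and 5 of 16 of V. CCGGAAG was also in 8 of 34 (23.5%) against 6.91% of all entries. AAGATGGCG was in 0 of 34 against 0.606% of all, and TATAAA was in 1 of 34 (2.94%), that of Atp5l, against 12.4% of all. The median log2 ratio was −0.06 for the members with CGCANGCG and −0.06 for those without, and −0.05 and −0.07 for CCGGAAG, so holders and other members had nearly the same ratios.

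Signals are in array units after background subtraction by the scanner software, and Drp1LiKO signals are printed after scaling to the control array's 75th percentile (the Drp1LiKO array was 1.13-fold brighter at that point). The log2 ratio is Drp1LiKO minus control, and each gene is given at its brightest detected probe. The noise between spots was read from 300 probes that the array prints 10 times: the SD of a log2 ratio of single spots was 0.053 at signals above 16384, 0.079 from 4096 to 16384, 0.105 from 1024 to 4096, 0.109 from 256 to 1024 and 0.213 from 64 to 256, the 4 lower classes resting on 2 to 9 probes each per array. It covers spots on 1 array only, not mice, cultures or hybridisations. The direction of a small ratio also depends on how the arrays are scaled. Over 11 processing settings, 19 of the 45 genes had a ratio below 0 in every one and 7 had a ratio above 0 in every one, and the direction of the other 19 depended on the setting.

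The members were expressed at nearly the same level on both arrays. No member passed a Z score of 2 in either direction (a log2 ratio beyond 1.30 or −1.31), against 3.48% of the 20165 detected genes with a higher and 2.81% with a lower signal in Drp1LiKO. No member reached 1.5-fold either, against 10.4% of all genes higher and 10.3% lower. Brighter probes vary less, and 39 of the 45 members had a mean signal of at least 4000. Of all 4146 genes at that signal, 7.14% differed by 1.5-fold or more in either direction, and none of the 39 members did. The SD of the log2 ratio over the 45 members was 0.147, against 0.691 over all genes and 0.358 over the 4146 bright genes. The plot of signals on both arrays shows the members along the line of equal signal.

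**Figure D1:**
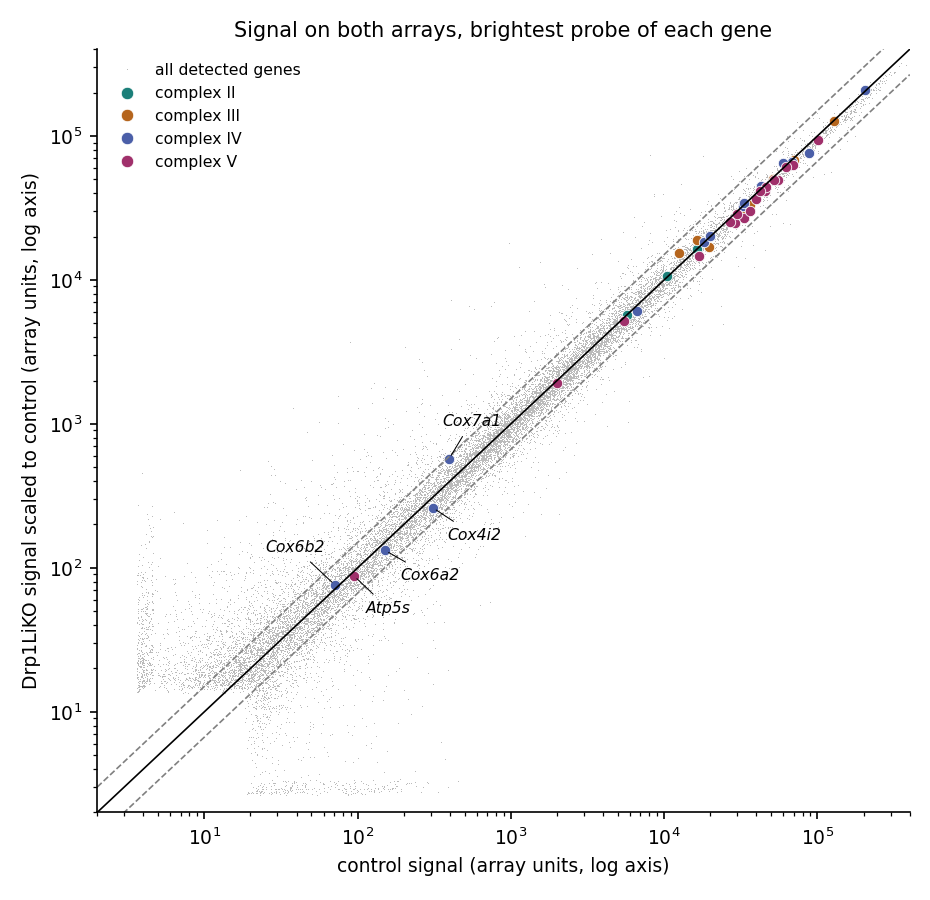
Signal of the brightest probe of each gene on the control array (x axis, array units, log axis) and on the Drp1LiKO array scaled to control (y axis, array units, log axis), with all 20165 detected genes in grey and the 45 members coloured by complex. The solid line is an equal signal and the dashed lines are 1.5-fold: all members lie between the dashed lines, Cox7a1 closest to one of them.

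Most ratios were slightly below 0 as scaled here. Of the 45 members, 33 (73.3%) had a lower signal in Drp1LiKO and 12 a higher one, against 55.4% of all genes below 0 and 60.2% of the bright genes. The median log2 ratio was −0.07, ranging from −0.30 (Atp5k, 1.23-fold lower) to 0.53 (Cox7a1, 1.45-fold higher), and the median of all genes was −0.05. That lead over all genes was not kept under every setting: with quantile normalization 57.8% of the members were lower against 55.4% of all genes, and the member median then lay 0.03 above that of all genes (0.02 above with normexp, 0.00 in the deposited table). Members beyond 2 times the spot noise numbered 19 of 45 (42.2%), close to the 45.8% of all genes. In complex V 18 of 18 genes were below 0 and in complex III 7 of 9, against 2 of 4 in complex II and 6 of 14 in complex IV. The count for complex V was 15 of 18 with quantile normalization and 14 of 18 in the deposited table, and that for complex III was 4 and 3 of 9. The median was −0.11 for complex V, −0.05 for complex III, 0.00 for complex II and 0.02 for complex IV.

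**Figure D2:**
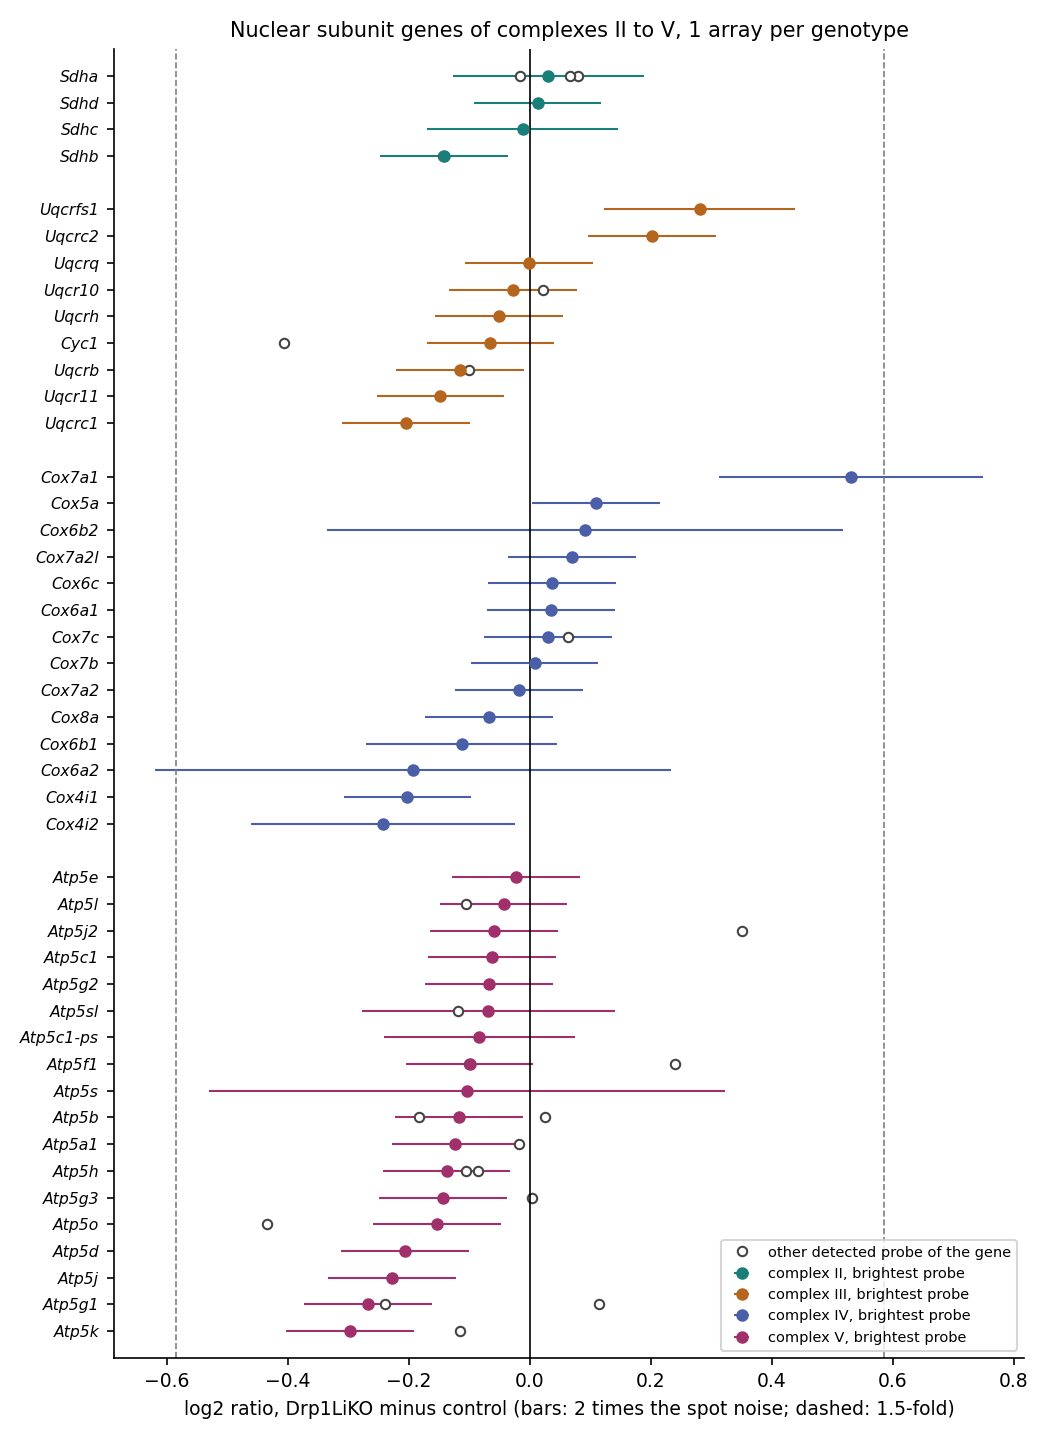
Log2 ratio of Drp1LiKO to control (x axis) for the 45 detected members, ordered within complexes II to V. Filled points are the brightest probe with bars of 2 times the spot noise, open points the gene's other detected probes, and dashed lines 1.5-fold: every brightest probe of complex V lies left of 0, and the open points of Cyc1 and Atp5o lie left of their filled ones.

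In complex II 3 of the 4 genes were within the spot noise. Sdha, the flavoprotein that oxidises succinate, had signals of 10494 in control and 10720 in Drp1LiKO (log2 ratio 0.03). Its 3 other detected probes, all dimmer, gave −0.02, 0.07 and 0.08, so none of the 4 stood apart from 0. The membrane anchors Sdhc, with 5729 and 5684 (−0.01), and Sdhd, with 16254 and 16405 (0.01), were likewise within the spot noise. Sdhb, the iron-sulfur subunit that passes electrons on towards ubiquinone, was the exception, with 33149 in control and 30043 in Drp1LiKO (−0.14). Its second probe, at a signal of 9013 in control, also gave −0.14, and the gene was below 0 in all 11 settings.

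In complex III the members pointed both ways. Uqcrfs1, the Rieske iron-sulfur protein, had 12576 in control and 15284 in Drp1LiKO (0.28), and Uqcrc2, core protein 2, had 16429 and 18902 (0.20). These were the highest of the complex, both beyond 2 times the spot noise and above 0 in all 11 settings. Uqcrc1, core protein 1 and the usual partner of Uqcrc2 in the matrix part of the complex, ran the other way, with 19493 and 16917 (−0.20). Its direction was not kept in the deposited normalized table, where the ratio was 0.03. The small subunits were at or below 0: Uqcr11 had 36445 and 32908 (−0.15). Uqcrb, the ubiquinone-binding protein, had 32003 and 29553 (−0.11), and a second probe starting 37 bases away gave −0.10. Uqcrq had 127882 and 127781 (0.00), Uqcr10 had 51001 and 50029 (−0.03, with 0.02 at its other probe), and the hinge protein Uqcrh had 70712 and 68272 (−0.05), all within the spot noise and with a direction that turned under other scalings.

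Cyc1, cytochrome c1, which hands the electrons to cytochrome c, was singled out after its values were seen, because its probes differed. The first probe, which holds the polyadenylation signal, had 43058 in control and 41171 in Drp1LiKO (−0.06). The second probe, which lacks it, had 24476 and 18464 (−0.41). The lower probe lies below every brightest probe of the 45 members, and the higher one is within 2 times the spot noise of no difference, a gap of 0.34 between the probes. The ratio was below 0 at both probes and in all 11 settings.

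Complex IV ranged from −0.24 to 0.53 (SD 0.189), and without Cox7a1 from −0.24 to 0.11 (SD 0.118), against an SD of 0.159 in complex III. Most of its ubiquitous subunits were close to 0. Cox4i1, the common form of regulatory subunit 4, had 87562 in control and 76133 in Drp1LiKO (−0.20), and its lung-type isoform Cox4i2 had 309 and 261 (−0.24). Both isoforms of subunit 4 thus lay below 0, and did so in all 11 settings. Cox5a had 59747 and 64461 (0.11), the highest of the ubiquitous subunits. Cox6a1, the liver form of subunit 6A, had 202792 and 207824 (0.04), while its heart and muscle form Cox6a2 had 151 and 132 (−0.19), the latter within 2 times the noise of dim spots. Cox6b1 had 6625 and 6128 (−0.11) and its testis form Cox6b2 had 71.2 and 75.9 (0.09), neither beyond 2 times the noise, with Cox6b2 turning below 0 in 2 of the 11 settings.

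Cox7a1, the heart and muscle form of subunit 7A, was the highest member, with 395 in control and 571 in Drp1LiKO (0.53), beyond 2 times the spot noise for its signal but below 1.5-fold. It had 1 probe, and its ratio ranged from 0.42 to 0.59 over the 11 settings, reaching 1.5-fold in 1 of them, where ratios were centred on the median of the bright genes. The liver form Cox7a2 had 32851 and 32448 (−0.02), and the related Cox7a2l, which helps to tie complex III to complex IV, had 42922 and 45066 (0.07). Cox7b had 18092 and 18196 (0.01), Cox8a had 68525 and 65415 (−0.07), and the last 2 subunits, Cox6c and Cox7c, were at 0.04 and 0.03. The remaining tissue forms were not well above background on either array: Cox7b2 (testis) had unscaled signals of 4.17 and 3.38, Cox8b (heart and muscle) of 4.22 and 3.48, and Cox8c (testis) of 18.8 and 3.40, so no ratio is given for them.

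The libraries also differed in the markers of other liver cells. Of 12 markers of Kupffer cells and macrophages, 11 were detected and all 11 were higher in Drp1LiKO, with a summed signal of 4709 in control and 18052 in Drp1LiKO. The 8 endothelial markers were all higher as well, with sums of 4123 and 7454, and 5 of the 6 detected stellate markers were higher, with sums of 21808 and 25509 (Lrat not detected). Both of these sums are mostly 1 gene: without Egfl7 the endothelial sums were 350 and 1338, and without Acta2 the stellate sums were 372 and 3800. The median log2 ratio of the detected markers was 2.52 for Kupffer cells and macrophages, 1.60 for endothelial and 0.64 for stellate cells. Only 9, 6 and 3 markers of these lists, in that order, were well above background on both arrays. The others detected were so on the Drp1LiKO array alone, with control set to its floor, so their direction was largely fixed beforehand. Of all genes, 55.4% were below 0. The 10 hepatocyte markers were all detected on both arrays and summed to 611460 and 598053, with 5 higher, and of 7 striated muscle markers 3 were detected, summing over all 7 to 151 and 182, with Ckm, Actn2, Myh7 and Tnni3 not well above background. Of 3 brown adipocyte markers, Cidea had 1424 and 4325 and Elovl3 81.9 and 87.3, and Ucp1 was not detected. Of 5 testis germ cell markers only Prm2 was detected, through the control array alone, and it was lower in Drp1LiKO. The part of these cells in the Cox7a1 ratio was not tested, and fewer cells of a type and less RNA per cell cannot be told apart in such pooled RNA.

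In complex V all 18 detected genes had a lower signal in Drp1LiKO, against 55.4% of all genes. Of the 18, 9 (50%) were beyond 2 times the spot noise, close to the 45.8% of all genes in either direction. A ratio below 0 was kept in all 11 settings by 11 of the 18. These 11 include Atp5s, Atp5sl and Atp5c1-ps, which are not counted as subunits. The set was even, with an SD of 0.078 over its genes, and the catalytic head, the membrane sector and the stalk had similar ratios. The 5 genes of the F1 head and central stalk had a median of −0.12, with a range of −0.21 to −0.02. Atp5b, the catalytic beta subunit, had 101409 in control and 93530 in Drp1LiKO (−0.12), and its alpha partner Atp5a1 had 45285 and 41597 (−0.12). Atp5d, the delta subunit, was the lowest of the group, with 16921 and 14675 (−0.21), and Atp5e, the epsilon subunit, the highest, with 41994 and 41339 (−0.02).

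The 4 genes of the peripheral stalk, which holds the head still while the rotor turns, had a median of −0.15. Atp5j, coupling factor 6, had 28932 and 24706 (−0.23). Atp5h, subunit d, had 39791 and 36178 (−0.14), and its 2 other probes gave −0.10 and −0.09. Atp5f1, subunit b, had 27076 and 25276 (−0.10), and a second bright probe gave −0.10 as well, while another probe, at a control signal of 42.1, gave 0.24. Atp5o, the oligomycin sensitivity protein that joins stalk and head, was like Cyc1 singled out after its values were seen: the probe with the polyadenylation signal had 55294 and 49712 (−0.15), and the upstream probe printed above had 11072 and 8193 (−0.43). The upstream probe had the lowest ratio of all detected member probes, and in both genes the lower value came from the probe without the polyadenylation signal.

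The 6 genes of the membrane sector had a median of −0.11, and they include both the lowest and nearly the highest ratios of the complex. Atp5k, subunit e, had 33308 in control and 27110 in Drp1LiKO (−0.30). Its second probe shares 49 of 60 bases with the first and gave −0.12, with 26177 in control, a gap of 0.18 between probes for nearly the same stretch. Atp5l, subunit g, had 62580 and 60742 (−0.04), and Atp5j2, subunit f, had 29660 and 28485 (−0.06), both within 2 times the spot noise. A dim second probe of Atp5j2, at 61.7 in control and 78.7 in Drp1LiKO, gave 0.35, so the median over its probes turned to 0.15.

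Atp5g1, Atp5g2 and Atp5g3 encode the same mature subunit c, which forms the rotor ring, from separate genes with different targeting peptides. Atp5g1 was the lowest of the 3, with 36189 in control and 30066 in Drp1LiKO (−0.27), and its second probe, printed above, gave −0.24. A further probe, placed 3998 bases downstream of the first, had 3613 and 3911 (0.11). Atp5g3 had 69746 and 63165 (−0.14), with 0.00 at a dim second probe. Atp5g2 was printed 10 times and so has its own spread: its spots ran from 46867 to 54359 in control (median 52711) and from 46217 to 51782 in Drp1LiKO (median 49932). The spots of the 2 arrays overlapped, and the log2 ratio was −0.07, with SDs between spots of 0.063 and 0.052. These SDs are above the medians of 0.035 and 0.039 for printed probes of that signal class. The spot noise used here is a median, so it can be too small for a given gene. The ratio of Atp5g2 was 0.05 in the deposited table, and Atp5g1 and Atp5g3 stayed below 0 in every setting.

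The names beside the subunits had ratios in the same range. Atp5s, coupling factor B, had 94.6 and 88.0 (−0.10), Atp5sl had 2006 and 1914 (−0.07), and the probe listed for Atp5c1-ps had 5447 and 5143 (−0.08), which may share transcripts with Atp5c1 (−0.06). Without these 3 and Cox7a2l the median of complex V was −0.12.

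Where a member gene had several detected probes, they mostly gave like ratios. The 23 pairs of a brightest probe with another probe, from 17 genes, had a median gap of 0.051 in log2 ratio, and 16 of them had the same sign. For the 17 pairs in which the other probe reached a control signal of 1000, 13 had the same sign, and the largest gap was 0.38 (Atp5g1). Over all genes the median gap at a mean signal of 1000 or more was 0.101 in 1677 pairs, and it was 0.209 in all 10110 pairs. Among the 57 member probes with a control signal of at least 1000, the 13 that hold AATAAA had a median ratio of −0.10 and the other 44 a median of −0.07, with overlapping ranges of −0.30 to 0.28 and −0.43 to 0.20. The GC content of those 57 probes ran from 28.3% to 55.0%, and across them it had a Pearson correlation with the ratio of −0.24 (Spearman −0.19), against −0.04 (−0.05) across the 9392 probes of that signal on the whole array. These probes share both libraries and partly the same transcripts, so the correlations are descriptions.

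**Figure D3:**
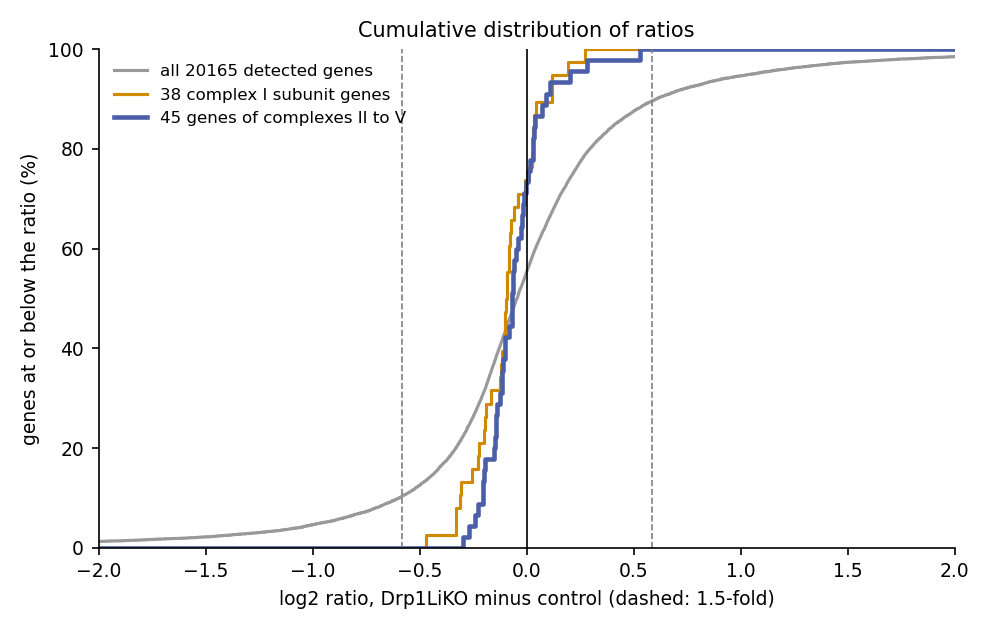
Cumulative share of genes (y axis, %) at or below each log2 ratio of Drp1LiKO to control (x axis), for all 20165 detected genes, the 38 complex I subunit genes (taken by name) and the 45 members of complexes II to V. Dashed lines mark 1.5-fold. The curves of the members and of complex I are steep around 0, within 1.5-fold in each case, while the curve of all genes has long tails.

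The complex I subunits, the nearest set on the respiratory chain, were close to the members in every summary. Of 38 genes, all detected, 28 (73.7%) were lower in Drp1LiKO, the median was −0.10 with an SD of 0.152, and none reached 1.5-fold or a Z score of 2. These genes were taken by name, and the names include Ndufa4 and its relative Ndufa4l2, which are not counted as complex I subunits. The ratios ran from −0.47 (Ndufa4l2) to 0.27 (Ndufa1), and from −0.33 (Ndufb7) without those names. The difference between both sets was not tested. Cytochrome c, the carrier between complexes III and IV, had 33569 and 33669 at Cycs (0.00), and its testis form Cyct was not detected.

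The subunits made from mitochondrial DNA lay lower than most of their nuclear partners at the brightest probe of each gene. The array names CYTB, COX1, COX2 and ATP8 were matched without regard to case. All 4 were lower in Drp1LiKO, against 55.4% of all genes and 60.2% of the bright genes. CYTB, cytochrome b of complex III, had 94051 in control and 50773 in Drp1LiKO (−0.89). COX1 had 156730 and 107832 (−0.54), ATP8 of complex V had 17639 and 13516 (−0.38), and COX2 had 197475 and 163625 (−0.27). CYTB was the only one of the 4 past 1.5-fold, against 20.7% of all genes and 7.14% of the bright genes in either direction. None passed the Z score threshold, but 3 of the 4 lay below all 45 nuclear members, whose lowest was −0.30. Across the settings run for them, CYTB and COX2 kept their direction, COX2 shrinking to −0.12 under quantile normalization and CYTB to −0.68 in the deposited table.

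Assembly factors, which help to build the complexes, scattered on both sides of 0. For comparison, 55.4% of all genes were below 0 and 20.7% were past 1.5-fold in either direction. For complexes II and III, 4 of 9 detected factors were higher and 5 lower (median −0.07), from Ttc19 at −0.39 to Sdhaf4 at 0.26. For complex IV, 13 of 24 were higher and 11 lower (median 0.03), from Cmc2 (1155 in control and 705 in Drp1LiKO, −0.71), the only factor past 1.5-fold, to Cox20 at 0.37. The list for complex V, of which 2 of 6 genes were higher and 4 lower (median −0.13), also held Usmg5, a small subunit of the enzyme (0.15), and its inhibitor protein Atpif1 (−0.14). Its 4 assembly factors ran from Tmem242 at −0.26 to Tmem70 at 0.15, with Tmem242 turning to 1.68 in the deposited table. The supercomplex factors Higd1a and Higd2a were at −0.14 and −0.08, the latter turning to 0.03 in that table.

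Of the regulators that act on respiratory genes, 2 of 11 detected were past 1.5-fold, against 20.7% of all genes in either direction, and both were dim. Ppargc1a, the coactivator PGC-1α, had 133 in control and 431 in Drp1LiKO (log2 ratio 1.69, 3.23-fold, Z score 2.60), the only gene of these lists past the Z score threshold. Its relative Ppargc1b had 120 and 188 (0.64), the other one past 1.5-fold. Tfam, the transcription factor of mitochondrial DNA, was the lowest, with 2357 and 1811 (−0.38). The factors whose motifs were searched had Nrf1 at −0.05, Gabpa at −0.21, Gabpb1 at −0.29 and Yy1 at 0.12. In all, 6 of the 11 were higher and 5 lower, and the ratio of Ppargc1a ranged from 1.16 to 1.75 over the settings run.

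**Figure D4:**
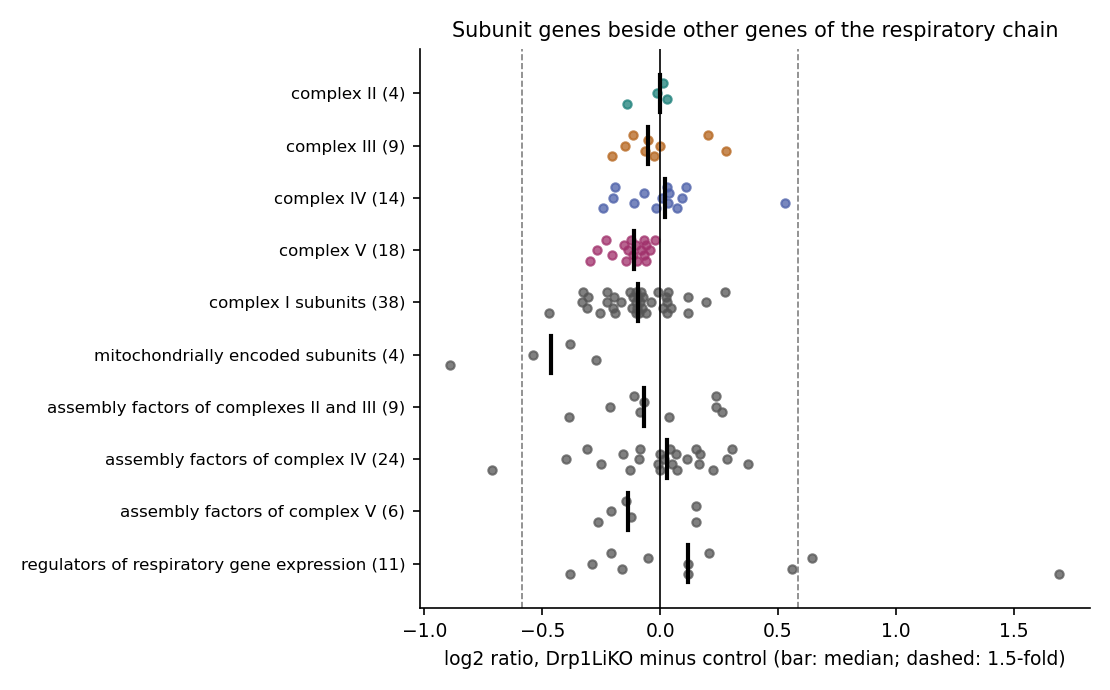
Log2 ratio of Drp1LiKO to control (x axis) for each detected gene (points) of complexes II to V and of 6 further lists of respiratory chain genes, with the number of genes in brackets (the complex V factors include the subunit Usmg5), black bars for medians and dashed lines for 1.5-fold. Complex V lies wholly left of 0, the 4 mitochondrially encoded genes have a median further left, and Ppargc1a is the point at 1.69.

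The order of the medians was complex V lowest, then III, II and IV. It was kept in 9 of the 11 settings, the reported one included. It differed in the deposited table and with no filter on dim probes. Spike-in scaling and centring on bright genes shift every ratio by the same amount, so they cannot change the order. Dropping the floor, keeping outlier spots or requiring both arrays left these medians nearly as reported. Quantile normalization, normexp and the median of all probes were free to change the order and kept it. Complex V had the lowest median in each of the 11 settings, from −0.11 as reported to −0.05 in the deposited table and with ratios centred on the bright genes. The medians of complexes II, III and IV stayed between −0.05 and 0.08. The gap between complexes V and IV was −0.13 as reported and −0.03 in the deposited table.

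**Figure D5:**
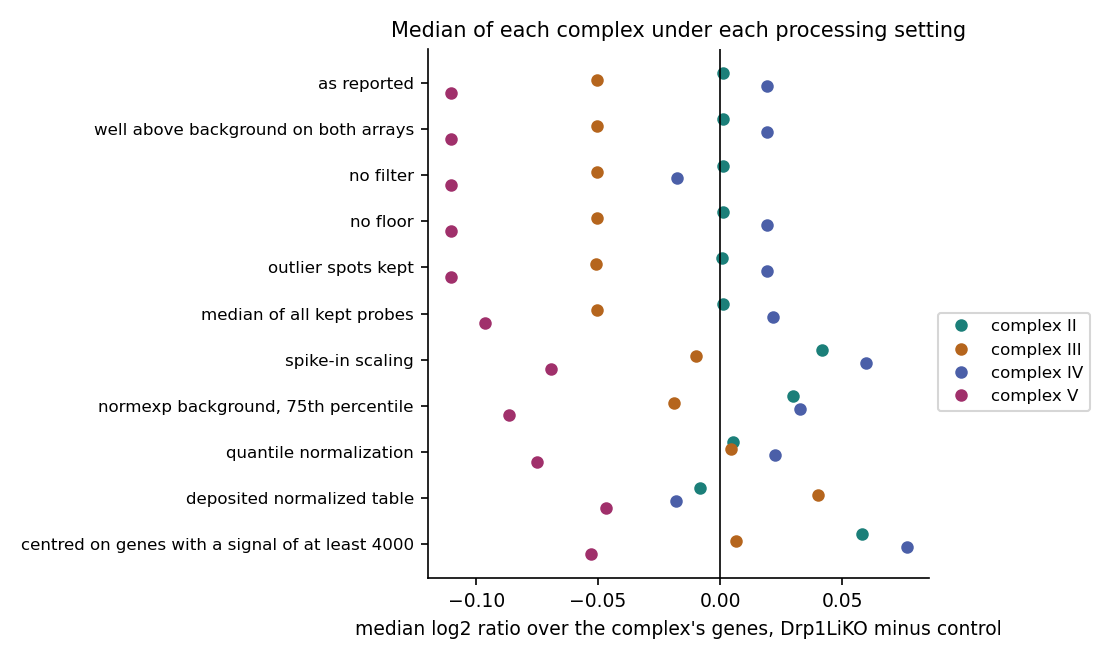
Median log2 ratio of Drp1LiKO to control (x axis) over the genes of each complex under each of 11 processing settings (y axis), coloured by complex. The points of complex V are the leftmost in every row, at −0.11 to −0.05, and those of the other complexes lie on both sides of 0.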

How the data were processed

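One-colour Agilent SurePrint arrays of Cy3-labelled RNA were read, 1 per genotype. The deposited scanner files hold intensity values per spot, background-subtracted by Feature Extraction (10.7.1.1 per the file headers, 9.5.1.1 per the submitters' processing notes), and a deposited table holds intensity values the authors normalized further. From the files, spots marked as outliers were left out, log2 signals of a probe's spots were averaged, and each array was centred on its 75th percentile. A probe was kept where either array had it well above background (30275 of 56600), signals not well above background were set to the array's lowest signal that was, and a gene took its brightest probe. No spot was saturated. Z scores used the mean and SD (0.654) of all kept ratios. Of the 56600 probes, 48.2% in control and 52.1% in Drp1LiKO were well above background. The number of arrays limits precision.

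Named genes were the 3 highest and lowest ratios per complex (all of complex II), the isoform sets, members past Z 2 or 1.5-fold, members whose probes differed in sign or by over 1 log2 unit, and the highest and lowest of each pathway list. Members and lists were chosen with earlier results of these data known. The steps were tested on simulated data whose changes were much larger than any member ratio, so the recovery of small ratios was not tested. Alternatives were quantile normalization, limma's normexp (limma 3.58.1, R 4.3.3), spike-in scaling, the deposited table, other filters, floors and Z scores, and the median of all probes. Further alternatives, centring on bright genes and leaving out names that are no subunit, were chosen after seeing the data. Other steps used Python 3.11.15 with numpy 2.4.6 and pandas 2.3.3.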

Additional observations from a re-analysis of the deposited data

How the results depend on the processing

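No member passed the Z score threshold under any alternative run, by the robust Z score and the Z score among probes of similar signal included. The median over the members stayed below 0 under every alternative, moving from −0.0670 to −0.00974 when ratios were centred on genes with a signal of at least 4000 (median of those genes −0.06). That centring gave medians of 0.0583 for complex II, 0.00661 for complex III, 0.0765 for complex IV and −0.0530 for complex V, and 19 members with a higher signal in place of 12. The deposited table gave 0.0403 for complex III and −0.0469 for complex V, and quantile normalization gave 0.00443 for complex III. The cause of these shifts was not tested. The deposited table turned the medians of complexes II and IV to −0.01 and −0.02 within the spot noise. Scaling to 7 spike-in probes (array shift 0.14 against 0.18) left 28 members lower in place of 33. Of 297 values of the 33 named members under 9 alternatives, 268 moved by less than 0.053 and 25 had the other sign. Many of the 268 could not have moved further. The filter and floor settings left the members' brightest probes as they were, and keeping outlier spots hardly changed them. Spike-in scaling shifts every ratio by the same amount, which is less than 0.053. No paired analysis was possible because each group holds 1 array, and no array could be left out. Signals near background limit Atp5s and the tissue isoforms, whose noise exceeds their ratios except for Cox7a1 and Cox4i2.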
